A study of Mus musculus with 6 samples.

Results

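Trrap, Nsd2, Cabin1 and Fam208b are 4 genes for large nuclear proteins that act on chromatin. They were taken by gene symbol from the 602 genes of the second of 2 deposited gene lists, which together hold 817 genes. The 4 genes were chosen by their values in these same libraries, which were known to be higher with Lhx8 siRNA than with vehicle. The comparison of the groups is therefore given for them as a description, with no test, and nothing is supported by its direction. RNA was sequenced from cultured mouse cells labelled as 3T3-L1, a fibroblast-derived preadipocyte line, in order to find genes whose expression changed when the LIM homeobox transcription factor Lhx8 was targeted. The 3 siRNA libraries came from cells transfected with Lhx8 small interfering RNA and labelled LHX8 deficient. The 3 vehicle libraries came from cells labelled wild-type, which were given the transfection reagent Turbofectamine alone. With no control siRNA among the sequenced libraries, loss of Lhx8 cannot be told apart from transfection of any siRNA. The labels give each sample its own number after the name of the line and call the cells preadipocytes, but adipocytes in culture are what the methods describe, so the stage of the cells is uncertain. No source used here states the time after transfection, or that replicate libraries were grown as separate cultures. The p-values given for other genes therefore rest on variation among libraries that could be purely technical.

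DNA in the nucleus is wrapped around histones, and enzymes that acetylate or methylate histones, together with chaperones that load them, set how readily a gene is transcribed. Trrap encodes a very large adaptor that resembles a kinase but has no kinase activity. It is shared by the SAGA and TIP60 histone acetyltransferase complexes and brings them to promoters through transcription factors such as MYC and E2F. Nsd2 encodes a SET-domain enzyme that places dimethyl marks on a lysine of histone H3 along transcribed genes. Cabin1 encodes an inhibitor of the phosphatase calcineurin, which also represses MEF2 transcription factors and belongs to the HIRA complex, a chaperone that deposits the histone variant H3.3 outside of DNA replication. Fam208b, named Tasor2 in RefSeq, encodes a relative of TASOR, the scaffold of the HUSH complex that silences repeats and transposons. Fat cell precursors rewrite their histone marks as they differentiate, and acetyltransferases, methyltransferases and MEF2 partners all take part in that programme.

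Trrap (ENSMUSG00000045482) and Nsd2 (ENSMUSG00000057406) lie on chromosome 5, Cabin1 (ENSMUSG00000020196) on chromosome 10 and Fam208b (ENSMUSG00000033799) on chromosome 13, by the GENCODE M21 annotation of GRCm38. The build used by the authors is not stated in the sources read here. Promoters of 3 of the 4 genes were found in RefSeq (GRCm38.p6): Trrap, Cabin1 and Fam208b, the last under the name Tasor2. They are shown as a description of the genes, and a shared regulator was not tested. Each run holds the 250 bases before the RefSeq transcription start, from 5′ to 3′ on the strand of the gene. Capitals mark CCAAT boxes (CCAAT) and GC boxes (GGGCGG), searched on both strands, so that a match on the other strand reads ATTGG or CCGCCC.
Trrap promoter, chr5:144768544-144768793, plus strand: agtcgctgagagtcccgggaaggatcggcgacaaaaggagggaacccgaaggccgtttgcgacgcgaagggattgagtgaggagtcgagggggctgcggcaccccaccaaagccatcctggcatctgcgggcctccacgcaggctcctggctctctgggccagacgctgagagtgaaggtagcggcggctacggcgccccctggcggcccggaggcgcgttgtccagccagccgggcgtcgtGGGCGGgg
Cabin1 promoter, chr10:75764358-75764607, minus strand: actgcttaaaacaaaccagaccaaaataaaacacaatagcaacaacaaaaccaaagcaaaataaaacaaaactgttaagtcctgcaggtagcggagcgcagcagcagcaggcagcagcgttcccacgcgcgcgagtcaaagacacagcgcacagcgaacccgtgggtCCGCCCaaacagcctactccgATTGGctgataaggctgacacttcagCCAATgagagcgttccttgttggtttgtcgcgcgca
Fam208b promoter, chr13:3611109-3611358, minus strand: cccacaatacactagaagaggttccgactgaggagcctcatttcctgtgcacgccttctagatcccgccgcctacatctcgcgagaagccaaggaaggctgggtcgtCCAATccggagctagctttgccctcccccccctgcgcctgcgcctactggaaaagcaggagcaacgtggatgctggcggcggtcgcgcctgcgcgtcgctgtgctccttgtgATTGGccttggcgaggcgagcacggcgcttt

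TAATTA, the core bound by many LIM homeodomain proteins, had 0 matches in each of the 3 windows on either strand, and was present in 4.84% of the 32851 RefSeq windows of this length. Cabin1 and Fam208b each had 2 CCAAT boxes, and Trrap had 0. Of all windows 33.9% had a CCAAT box. In Cabin1 the boxes began 62 and 36 bases before the start, and in Fam208b 143 and 31 bases before it. Trrap and Cabin1 each had 1 GC box, against 0 in Fam208b, and 32.7% of all windows had one. The E-box CACGTG, which MYC can bind, had 0 matches in the 3 windows and was in 6.02% of all windows. The GC content was 69.6% in Trrap, 51.2% in Cabin1 and 62.8% in Fam208b, with a median of 52.4% over all windows. None of the 4 motifs was found in all 3 promoters. Each was in 33.9% of all windows or fewer, so missing from 1 or more of 3 windows is common. Nothing is read from this.

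The values of the second list stood under a read count heading, but hardly any of the plain numbers were whole, so they are treated as expression values on an unknown scale. Whether they were divided by gene length is not known, and levels are therefore not compared between genes. Some cells held a date and time in place of a number. Read back as a spreadsheet's serial number, 523 of 525 such cells equalled the mean of the plain numbers of their group within 0.01, so they were not used as measurements, and neither were 45 further cells that could not be read back in this way. Of the 24 cells of the 4 genes, 20 held a plain number and 4 were in date format, all 4 equal to such a mean. The lists do not look alike where they overlap. For 15 genes found in both with a plain siRNA value, the ratio of mean siRNA count to mean siRNA value ran between 0.0732 for Agt and 62.3 for Dpt, both named after their values were seen. In 86.6% of the genes of the count list the highest value was that of vehicle 3, which was so in 28.6% of the 273 second-list genes with all values. None of the 4 genes is in the count list, so their values could not be checked there, and Lhx8 itself is in neither list. Total estimated counts of the count list were 130467 in vehicle 3 and between 24314 and 28919 in every other library. The depth behind the second list is unknown.

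All 4 genes had higher values with Lhx8 siRNA, by 11.5% to 13.7% of the vehicle mean, and for each of them every siRNA value lay above every vehicle value. The same separation was found in 48.8% of the 496 genes of the second list that had at least 2 plain numbers in each group. Trrap, the acetyltransferase adaptor, had values of 46.41 and 48.37 in siRNA 1 and 3, against 37.94, 42.99 and 45.55 in vehicle 1, 2 and 3. The siRNA 2 cell was in date format. The siRNA values were close to each other, whereas vehicle 1 was well below vehicle 3, which came within 0.86 of the lowest siRNA value. The means were 47.4 ± 1.39 (SD, n = 2) with siRNA and 42.2 ± 3.87 (SD, n = 3) with vehicle, a log2 difference of 0.17 ± 0.079 (SE). Without vehicle 1 the difference was 0.098. All log2 differences here are siRNA minus vehicle, taken after adding 0.1 to each value, which understates changes of low values, with the SE from a limma fit across those 496 genes.

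Nsd2, the histone methyltransferase, had values of 68.81 and 61.65 in siRNA 2 and 3, against 57.24, 57.39 and 57.51 in vehicle 1, 2 and 3. The 3 vehicle values were almost the same, with a coefficient of variation of 0.236%, and the siRNA values were 4.14 or more above the highest of them. The means were 65.2 ± 5.06 (SD, n = 2) with siRNA and 57.4 ± 0.135 (SD, n = 3) with vehicle, and the log2 difference was 0.18 ± 0.067 (SE). Nearly all of the spread was among the siRNA libraries, and the difference was 0.10 without siRNA 2 and 0.26 without siRNA 3.

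Cabin1, the calcineurin inhibitor and HIRA subunit, was the only one of the 4 with a plain number in every library. Its values were 129.36, 134.58 and 142.95 in siRNA 1, 2 and 3, against 118.25, 122.25 and 124.39 in vehicle 1, 2 and 3. The groups were 4.97 apart at their nearest values. The means were 135.6 ± 6.86 with siRNA and 121.6 ± 3.12 with vehicle (SD, n = 3 each), and the log2 difference was 0.16 ± 0.052 (SE), the smallest of the 4 with the smallest error. Leaving out any library kept it between 0.12 and 0.19.

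Fam208b, the TASOR relative, had values of 26.22 and 25.62 in siRNA 1 and 2, against 21.95 and 23.69 in vehicle 1 and 3. It had the fewest plain numbers, and a date-format cell in each group. The siRNA values agreed closely, and the lowest of them was 1.93 above vehicle 3. The means were 25.9 ± 0.424 with siRNA and 22.8 ± 1.23 with vehicle (SD, n = 2 each), with a log2 difference of 0.18 ± 0.092 (SE). Counting the filled cells as measurements left the difference at 0.18 but gave an SE of 0.036, which understates the spread.

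**Figure D1:**
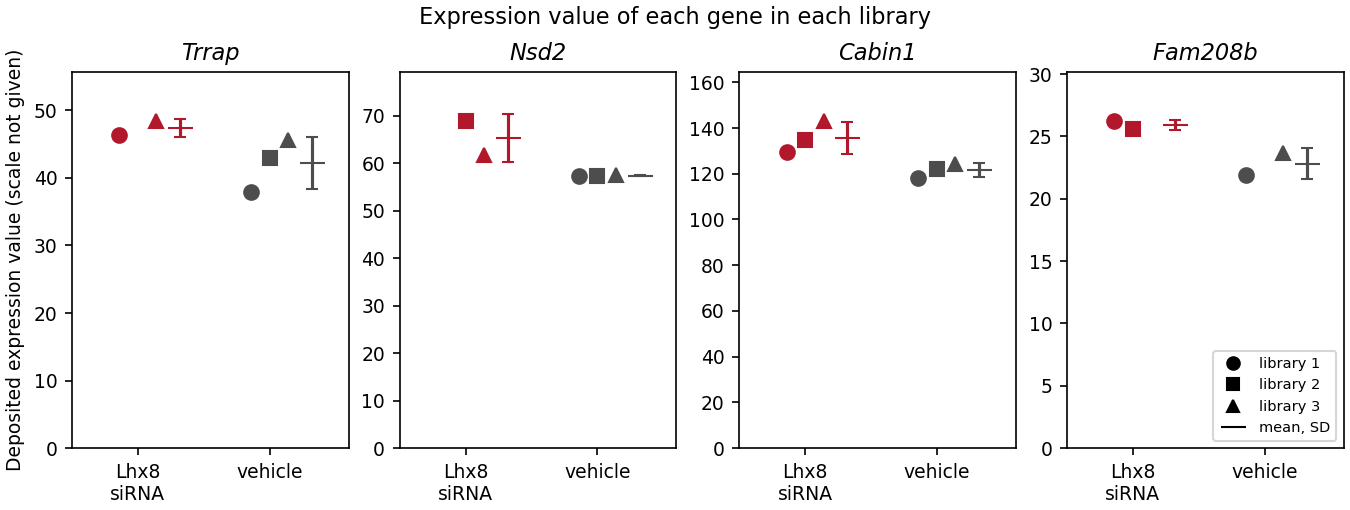
Deposited expression value (linear axis from 0, scale not given) of Trrap, Nsd2, Cabin1 and Fam208b in each Lhx8 siRNA library (left, red) and each vehicle library (right, grey), with the mean and SD beside the points and a circle, square or triangle for library 1, 2 or 3. Cells in date format are not drawn, and in each of the 4 panels the siRNA points lie above all vehicle points, by 0.86 in Trrap and 4.97 in Cabin1. The 4 genes were chosen on this contrast, and 48.8% of the 496 tested genes showed the same separation.

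The 4 log2 differences ran between 0.16 and 0.18. The genes differed in where their spread lay, though each coefficient of variation below rests on only 2 or 3 values. The coefficient of variation of Trrap was 2.92% among siRNA libraries and 9.18% among vehicle libraries, and that of Fam208b 1.64% and 5.39% in the same order. Nsd2 and Cabin1 varied more among siRNA libraries, at 7.76% against 0.236% for Nsd2 and 5.05% against 2.56% for Cabin1. Within the vehicle group, vehicle 3 was the highest and vehicle 1 the lowest for all 4, on the plain numbers they have. The order means little for Nsd2, whose vehicle values were almost the same, and Fam208b has no plain number in vehicle 2. Over the 273 genes with all values, vehicle 3 was the highest vehicle library in 52.4% and vehicle 1 the lowest in 53.1%.

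The differences of these genes were small for this list. An absolute log2 difference larger than that of Cabin1 was found in 93.1% of the 496 tested genes, and larger than those of Trrap, Nsd2 and Fam208b in 85.7%, 81.9% and 81.0%. The median absolute difference of all tested genes was 0.27. Of the 496 tested genes 2 lay closer to 0 than 0.1, so the list holds hardly any gene without a difference between these groups. Beside the 48.8% with all siRNA values above all vehicle values, 48% of the tested genes had all of them below. The limma fit called 246 genes higher (49.6%) and 242 lower (48.8%) at an adjusted p of 0.05, and 8 genes did not pass. After median centring of each library 251 were called higher and 184 lower. With 98.4% of the tested genes passing in the main fit, passing sets no gene of this list apart. The adjusted p-values given for single genes below are therefore a description only.

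The genes that make up the complexes of these proteins were hardly represented. Of 17 other TIP60 genes and 19 other SAGA genes, partners of Trrap, 0 were in either list, and the same held for 10 HUSH genes and partners. Of 5 other HIRA genes only Ubn2, which encodes a histone chaperone subunit, was in the second list, with values of 12.32, 12.63 and 11.59 with siRNA and 1 plain vehicle value of 10.37, too few to test. Because the lists are selections, such absence says nothing about the expression of these genes. Across 16 lists of chromatin regulators and direct partners, which hold 290 genes beside the 4, 23 were in the second list and 16 could be tested. The other 7 (Nsd1, Ubn2, Mef2c, Hdac4, Chd2, Phc3 and Atm) had too few plain numbers. As 98.4% of all 496 tested genes passed in the limma fit, a call for the rest adds little beyond its direction. The 16 tested genes had a median log2 difference of 0.28. Over all 496 genes the median was 0.13, which mixes genes that rose with genes that fell. Among the 253 genes with a higher mean it was 0.27. Of the 16, 11 were higher and 4 lower with siRNA (limma, adjusted p under 0.05), against 49.6% and 48.8% of all tested genes. With libraries centred on their medians the counts were 12 and 2, and without siRNA 2 only 7 were called higher, with 4 lower.

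Histone lysine methyltransferases, the family of Nsd2, formed the largest group, with 6 tested genes, 4 higher and 1 lower. Over all tested genes 49.6% were higher and 48.8% lower. Of the family, Ash1l, Kmt2a, Kmt2d, Kmt2e and Dot1l are in the longest of 5 coding-length bins described below. In that bin 90.8% of genes had a higher mean with siRNA. Dot1l, which methylates the core of histone H3, had values of 62.46, 61.52 and 67.93 with siRNA against 47.72, 50.19 and 51.67 with vehicle, a log2 difference of 0.36 ± 0.061 (adjusted p = 4.98e-05, limma). Kmt2d, an enhancer methyltransferase required for fat cell differentiation in mice, had 43.48, 44.24 and 47.51 with siRNA against 32.82, 34.59 and 38.32 with vehicle, also a difference of 0.36 (adjusted p = 1.61e-04, limma). In both genes the groups were clearly apart, and the differences were about the size of the upper quartile of the list (0.38). The related Kmt2a and the brown fat regulator Prdm16 also rose, with differences of 0.22 and 0.40 (adjusted p = 0.0134 and 0.0125, limma). Kmt2e, a SET-domain reader with little enzymatic activity, fell by 0.14 on the log2 scale (adjusted p = 0.0142, limma), with 104.55, 109.81 and 109.9 with siRNA against 120.84, 118.37 and 117.31 with vehicle. Ash1l, which acts on the same histone H3 lysine as Nsd2, had a difference of 0.11 ± 0.063 and did not pass (adjusted p = 0.103, limma). Nsd1, a relative of Nsd2 that methylates the same lysine, had 1 plain siRNA value of 29.68 and vehicle values of 26.61 and 27.49, and was not tested.

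Genes around calcineurin and MEF2, with which Cabin1 interacts, went both ways, with 3 higher and 2 lower of 5 tested, against the same shares of 49.6% and 48.8% over all tested genes. Hdac9 and Hdac5, class IIa deacetylases that bind MEF2, rose. Hdac9 had values of 5.51, 5.62 and 4.59 with siRNA against 2.93 and 2.69 with vehicle, the largest difference of the chromatin genes at 0.87 ± 0.15 (adjusted p = 7.11e-05, limma). Hdac5 had 92.78, 96.78 and 92.89 with siRNA against 72.24, 78.43 and 79.56 with vehicle, a difference of 0.30. Rcan2, a regulator of calcineurin, rose by 0.37. The calcineurin catalytic subunit Ppp3ca had 30.83, 30.38 and 30.86 with siRNA against 36.48 and 38.13 with vehicle and fell by 0.28 (adjusted p = 0.00206, limma). Nfatc4, a transcription factor that calcineurin activates, fell by 0.40 (adjusted p = 8.10e-04, limma). Among the remaining chromatin genes, the kinase Smg1, of the same family as Trrap, rose by 0.27, the remodeller Chd1 by 0.22, the Polycomb cofactor Aebp2 by 0.32 and the bromodomain protein Brwd1 by 0.36, while the ubiquitin ligase Uhrf2 fell by 0.16. All 16 tested chromatin genes had groups that did not overlap, as did nearly all genes of the list.

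**Figure D2:**
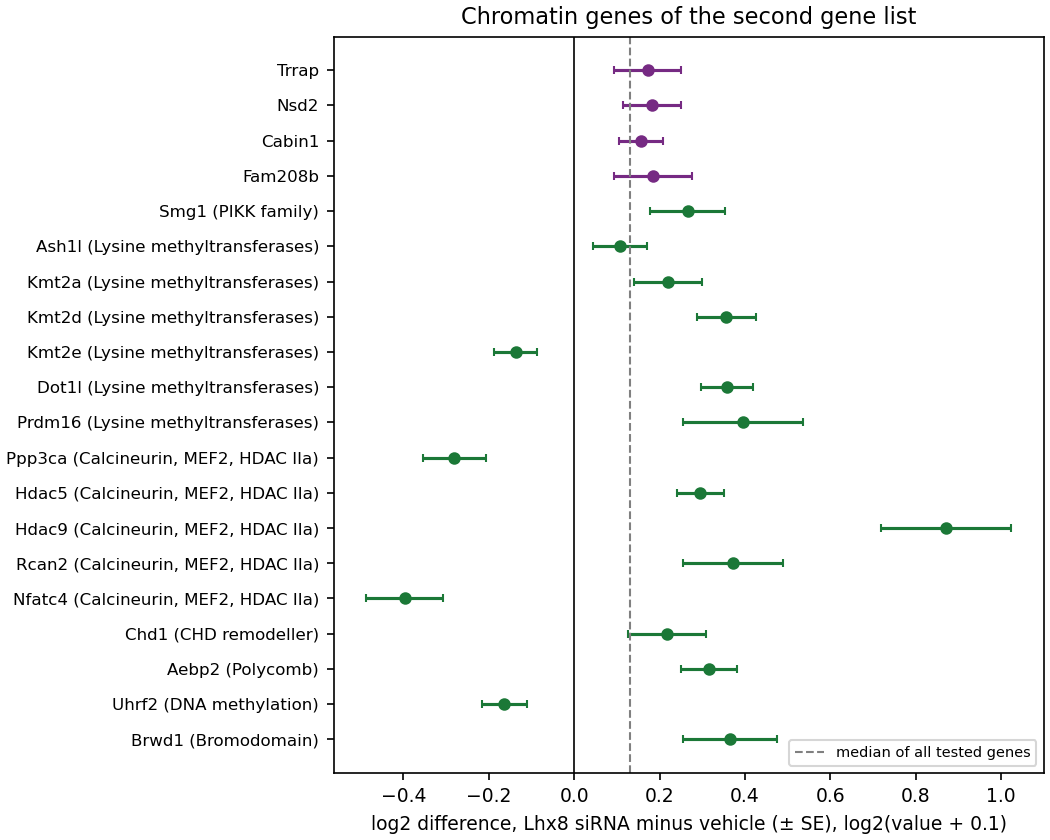
Log2 difference (siRNA minus vehicle, log2 of the value plus 0.1) with its SE for Trrap, Nsd2, Cabin1 and Fam208b (purple) and the 16 other tested chromatin genes (green, with the group of each), beside the median of all tested genes at 0.13 (dashed). The 4 genes lie together between 0.16 and 0.18, Hdac9 is farthest to the right at 0.87, and Kmt2e, Ppp3ca, Nfatc4 and Uhrf2 lie left of 0. The dashed median mixes genes that rose with genes that fell. Between 81.0% and 93.1% of tested genes had a larger absolute difference than each of the 4.

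The 4 genes share a long coding sequence. In this list higher values with siRNA went with length, so their length is not independent of the values by which they were chosen. The longest coding sequence in GENCODE M21 was 11577 bases for Trrap, 7146 for Fam208b, 6561 for Cabin1 and 4098 for Nsd2. Over the 488 tested genes with a coding length the median was 1755 bases, and Trrap ranked 14, Fam208b 47, Cabin1 54 and Nsd2 102 from the longest. The direction of the difference followed length across the whole list. The genes were put in 5 bins of similar size by coding length. In the longest bin, 4188 to 22065 bases, 89 of 98 genes (90.8%) had a higher mean with siRNA, against 159 of 390 genes outside it and 30.3% of 99 genes in the shortest bin. Median coding length was 3011 bases among the genes with a higher mean with siRNA and 1286 bases among those with a lower one. These values describe a selected list, and genes in it are not independent.

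Set beside genes of their own length, the 4 differences were not large. The other genes of the longest bin had a median log2 difference of 0.25, and 75.8% of them exceeded Trrap, 84.2% Cabin1 and 74.7% Fam208b. Nsd2, at the upper end of the next bin, lay below the median of the other genes there (0.20), and 57.3% of them exceeded it. The tested chromatin genes had a median coding length of 4224 bases. In the longest bin 7 of 8 had a higher mean with siRNA, and outside it 5 of 8. The part of transcript length in the differences of Trrap, Nsd2, Cabin1 and Fam208b was not tested.

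**Figure D3:**
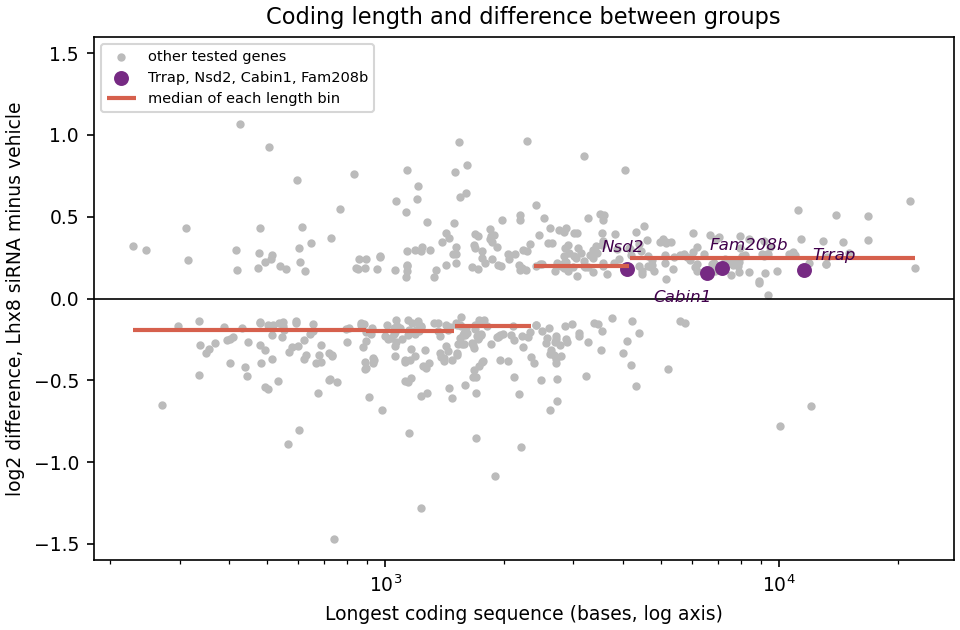
Log2 difference (siRNA minus vehicle) of the tested genes against the length of their longest coding sequence (log axis, bases), with Trrap, Nsd2, Cabin1 and Fam208b in purple and the median of each length bin as a red line. The medians lie below 0 in the 3 shorter bins and above 0 in the 2 longer ones (0.25 in the longest), the 4 genes lie just above 0 at the long end, and 2 genes with an absolute difference over 1.6 are outside the plot.

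Libraries of 1 group also differed from each other by coding length. Among the 42 genes of the longest bin with all values, the median log2 deviation from the group mean was -0.074 in vehicle 1, 0.0090 in vehicle 2 and 0.071 in vehicle 3. Among the 62 genes of the shortest bin it was -0.0095, -0.0096 and 0.0031 in the same libraries. Trrap and Cabin1, which are in the longest bin, were lowest in vehicle 1 and highest in vehicle 3, and Fam208b, with no plain number in vehicle 2, was lower in vehicle 1 than in vehicle 3. Nsd2, in the next bin, hardly differed between the vehicle libraries, whereas the medians of its bin ran between -0.050 in vehicle 1 and 0.050 in vehicle 3. Among siRNA libraries the longest bin had medians of -0.017, 0.041 and -0.020 in siRNA 1, 2 and 3. Of the 3 genes in that bin, Cabin1 was highest in siRNA 3 and Fam208b was higher in siRNA 1 than in siRNA 2, while Trrap has no plain number in siRNA 2.

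**Figure D4:**
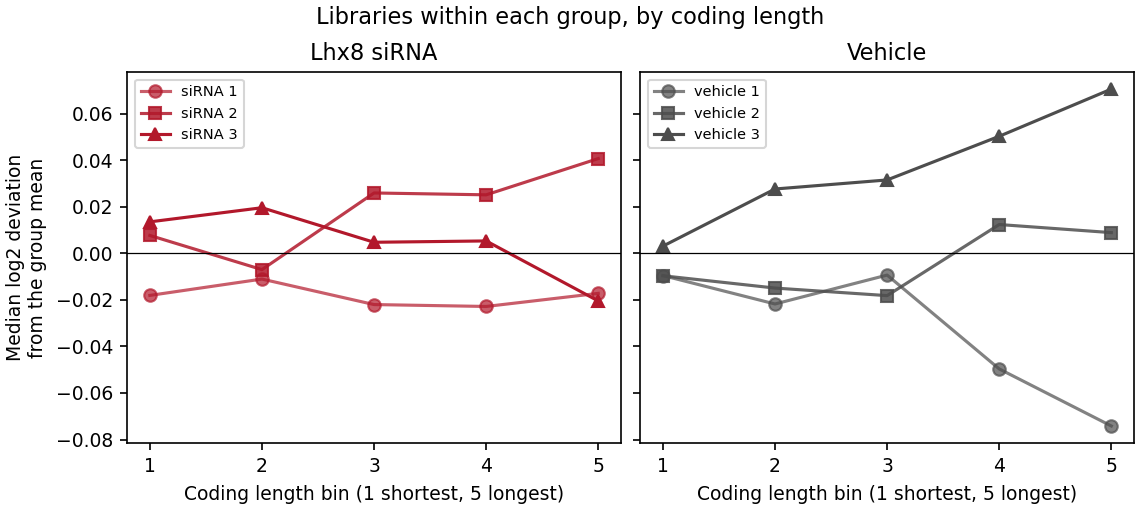
Median log2 deviation of each library from the mean of its own group, by bin of coding length, for the siRNA libraries (left) and the vehicle libraries (right), over genes with all 6 values. The vehicle libraries spread apart with length, to -0.074 in vehicle 1 and 0.071 in vehicle 3 in the longest bin, while the siRNA libraries stay between -0.023 and 0.041.

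Genes whose values across libraries were most like those of each gene were found among genes with plain numbers in all 6 libraries, by the Pearson correlation of log2 values over the libraries where the gene itself had one. For Trrap they were Ptpn14, a tyrosine phosphatase, and Fryl, with r of 0.997 and 0.995 over 5 libraries. For Nsd2 they were Dstn, which encodes the actin-severing protein destrin, and Pls3, an actin bundler, with 0.988 and 0.986 over 5 libraries. For Cabin1 they were the transcription cofactor Lbh and the repressor Cic, with 0.982 and 0.976 over 6 libraries, and for Fam208b the adhesion protein gene Tln1 and the amino acid transporter Slc7a1, with 0.998 and 0.997 over 4 libraries. The 4 to 6 libraries fall into the 2 groups whose contrast was used to choose the 4 genes. Nearly all genes of the list also differ between these groups, so a high r can come from that difference alone. An r above 0.9 was reached by 22 of 273 genes for Trrap, 26 of 273 for Nsd2, 30 of 272 for Cabin1 and 79 of 273 for Fam208b.

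Markers of the labelled cell type in the second list had lower values with siRNA. Of 16 preadipocyte and fibroblast markers 4 were in the second list, Pdgfra, Ly6a, Col3a1 and Twist2, and all 4 fell, as did 48.8% of all tested genes, with a median log2 difference of -0.28. The summed value of the 3 of these with all libraries was 758 to 789 with siRNA and 901 to 988 with vehicle. Both measured adipocyte markers of 15, Adipoq and Lpl, fell as well, and Ldb1, the cofactor that LIM homeodomain proteins bind, fell by 0.17. Ly6a, Twist2 and Adipoq are in the shortest coding-length bin, where 30.3% of genes had a higher mean with siRNA. Lpl and Ldb1 are in the next shortest, with 29.2%. Pdgfra is in the bin next to the longest, with 62.9%, and Col3a1 in the longest, with 90.8%. Of 19 leukocyte, 12 endothelial and 11 epithelial markers 0 were in the second list, and 1 of each was in the count list. In bulk RNA, fewer cells of a type and less RNA per cell cannot be told apart. The part of cell composition in the differences of the 4 genes was not tested.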

How the data were processed

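Poly(A) RNA of 6 libraries (3 siRNA, 3 vehicle, grouped and numbered by their titles) was sequenced on a DNA nanoball platform. The authors aligned reads with HISAT and Bowtie2 and, per the labels, quantified them with RSEM and compared groups with DESeq2. Neither versions nor the build or annotation are stated in the sources read here. The authors deposited estimated counts for a first list of genes, used here only for library order, totals and overlap, with group means, log2 ratios and p-values of their own comparison, which were not used. They deposited a second list of 602 genes whose decimal values, of no stated scale or origin, were handled as a score. Its cells in date format were left out.

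The unit was not known to be counts, so the second list was fitted with limma 3.58.1 (trend, R 4.3.3) on log2 of the value plus a pseudocount of 0.1, for 496 genes with at least 2 plain numbers per group, unpaired. P-values were adjusted over all 496 by the Benjamini-Hochberg method, and 0.05 was the threshold. The fit was tested on simulated data with independent noise and no true difference in most genes. Nearly all genes of this list differ, so that test checks the fit procedure and not the calls made here. Alternatives were other pseudocounts, median centring, filled cells, complete genes, a low-value filter, no trend, a replicate block and leaving out each library. Coding length, from GENCODE M21 by symbol, was examined after the values were seen. The 4 genes and the lists were chosen with earlier results of these data known. Named are the 4 genes, listed chromatin genes and markers, and the 2 genes most correlated with each of the 4.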

Additional observations from a re-analysis of the deposited data

How the results depend on the processing

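All 4 log2 differences stayed above 0 with pseudocounts of 1 and 0.01, centring, filled cells, a low-value filter, no trend, the replicate block and each library left out. Only Cabin1 could be fitted among genes with all 6 values. Leaving out libraries gave 0.098 to 0.23 for Trrap, 0.10 to 0.26 for Nsd2, 0.12 to 0.19 for Cabin1 and 0.13 to 0.24 for Fam208b, where a lone value was assumed to vary like the other group. With libraries centred on their medians, Trrap had 0.25, Nsd2 0.24, Cabin1 0.23 and Fam208b 0.25. Less the median of their coding-length bin, an alternative chosen after seeing the data, the values were -0.080 ± 0.079 for Trrap, -0.014 ± 0.067 for Nsd2, -0.096 ± 0.052 for Cabin1 and -0.068 ± 0.092 for Fam208b (SE of the unshifted difference). This shift moves all genes of a bin alike, so any difference above 0 but below the bin median turns sign under it, and nothing is read from the sign.

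Of the 273 genes of the second list with all 6 values, 122 were called higher and 149 lower. In the main fit 246 and 242 of 496 were, so the balance of directions shifted as well as the number tested. Of 7 chromatin genes with all 6 values, 4 were called higher and 2 lower. With filled cells kept, 18 chromatin genes of 22 were called higher and 4 lower, against 300 and 283 of all 588 tested genes. Nearly all filled cells equal group means, which understates the spread, so nothing is read from the larger count. Centring gave 2 chromatin genes lower, and leaving out libraries 7 to 11 higher and 3 to 4 lower.

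Deviations of same-numbered libraries had r of 0.253, 0.123 and 0.0343 for numbers 1, 2 and 3. Those of differently numbered libraries had r between -0.307 and 0.133. These values do not settle whether libraries were paired, and the main fit was unpaired. With the replicate block 238 genes were called higher and 238 lower, and Fam208b had 0.26. The unknown depth and scale of the second list set no floor for its low values.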
